A study of Mus musculus with 6 samples.

Results

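Basement membrane collagen and laminin genes were followed in tibialis anterior muscle (TAM) of control and hypothyroid mice, before and after injury. The group consists of Col4a1, Col4a2, Lama2, Lama4, Lamb1, Lamc1, Nid1, and Hspg2, chosen by gene symbol. They are 8 of the 12436 genes listed for every cell, and all 8 were found once. Cells were profiled by droplet-based single-cell RNA sequencing, in which each unique molecular identifier (UMI) counts a captured RNA molecule near its 3′ end. There were 6 libraries, 1 for each combination of diet and day: control at days 0, 5, and 14 and hypothyroid at days 0, 5, and 14.

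All mice were male and carried the Fucci2aR cell cycle reporter in the Gt(ROSA)26Sor locus on a mixed B6;129 background. Per the study's methods they were 3 to 5 months old, and mice without Cre were used for sequencing. Hypothyroid mice received an iodine-deficient diet with 0.15% propylthiouracil, an inhibitor of thyroid hormone synthesis, from 3 weeks before injury, and control mice a matched diet. Day 0 was uninjured muscle, and days 5 and 14 followed injection of cardiotoxin, a snake venom toxin that destroys myofibers. Cells of 3 mice were pooled into each library before capture, so each group is 1 sample. No difference between groups could be tested, and every interval below is a 95% interval that covers counting error only.

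Basement membranes are thin sheets of matrix that surround myofibers, capillaries, and peripheral nerve. Laminins are trimers of an α, a β, and a γ chain that bind integrins and dystroglycan at the cell surface and assemble into a first network, whereas type IV collagen forms a second network that is crosslinked into place. Nidogen and perlecan bridge both networks. Lama2 encodes the α2 chain of the main muscle fiber laminin, whose loss causes congenital muscular dystrophy, Lama4 the α4 chain typical of vessels, and Lamb1 and Lamc1 the β1 and γ1 chains shared by many laminins. Col4a1 and Col4a2 encode the chains of the most widespread type IV collagen, Nid1 encodes nidogen-1, and Hspg2 encodes perlecan, a heparan sulfate proteoglycan.

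Col4a1 and Col4a2 lie head to head on chromosome 8 of mm39 (GRCm39). The files place Col4a1 (ENSMUSG00000031502.12) at chr8:11248423-11362826 and Col4a2 (ENSMUSG00000031503.14) at chr8:11362805-11499287, and the reference annotation gives Col4a1 on the minus and Col4a2 on the plus strand. Ends are given 1 base below those of the files, here and for the other genes. Of 12160 genes matched to the reference annotation, the files' end lay 1 base past in 3967 and was the same in 301. By the files' coordinates with these lowered ends, the gene bodies overlap at their 5′ starts over 22 bases, chr8:11362805-11362826. The reference annotation used for strands starts Col4a2 at 11362471, and the overlap is longer there. The 22 bases are shown on the plus strand because they join the starts of both collagen IV genes as counted here, with the capitals marking a GGGCGG motif:
Col4a1 and Col4a2 shared start: agtgcgcGGGCGGcgtctccaa

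In RefSeq promoter windows of GRCm38.p6 (250 bases before to 50 after a start), GGGCGG on either strand was found in all 6 of the members with a window, Col4a1, Col4a2, Lama2, Lamb1, Nid1, and Hspg2, and in 35.7% of all 32851 windows. CCAAT was found in 4 of the 6 and in 37.4% of all windows, and TATAAA in 0 of the 6 and 13.6% of all windows. These are matches of letters and show no binding. The other genes are spread over the genome: Lama2 (ENSMUSG00000019899.18) at chr10:26856032-27495754, Lama4 (ENSMUSG00000019846.12) at chr10:38841511-38986184, Lamb1 (ENSMUSG00000002900.18) at chr12:31315233-31379643, Lamc1 (ENSMUSG00000026478.15) at chr1:153094668-153208532, Nid1 (ENSMUSG00000005397.9) at chr13:13612136-13686854, and Hspg2 (ENSMUSG00000028763.19) at chr4:137196080-137297941.

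The files hold 20269 cell columns in runs of alphabetically ordered barcodes, and 1680 cells stand in files of different groups, because later runs repeat cells of other libraries. Therefore the analysis was limited to each file's first run, in all 11207 cells with 2283740 to 23496509 UMIs per library and a median of 3634 to 8055 UMIs per cell. This left out 9062 columns, more than those 1680 cells, and their origin is not known. First runs held 1152 of 2304, 2428 of 4855, and 3294 of 6095 control columns at days 0, 5, and 14. In hypothyroid they held 528 of 1056, 2155 of 4309, and 1650 of 1650. The paper's cell counts exceed the first run in every sample, and at days 0 and 5 they are close to all columns. The first runs shared 12 barcodes between groups and 0 cells with the same values. Whether a first run belongs to the group of its label could not be checked from these data.

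Cells were assigned to types by marker lists that hold none of the 8 genes, and a type is called like after its list. Fibro-adipogenic progenitor-like (FAP-like) cells, the resident fibroblasts of muscle, numbered 716, 300, and 1372 in control at days 0, 5, and 14 and 268, 648, and 783 in hypothyroid. Endothelial-like cells numbered 83, 126, and 461 in control and 22, 31, and 215 in hypothyroid. The genes leading each gate outside its list included Pi16 and Efemp1 for FAP-like, Flt1 and Gpihbp1 for endothelial-like, and Ms4a4b and Il2rb for T or NK-like cells. Of the FAP-like cells 14.6% lay near the limit of the gate, of the endothelial-like cells 18.9%, of the glial-like 12.1%, of the mural-like 28.2%, of the T or NK-like 36.5%, of the myogenic progenitor-like 37.8%, and of the tenocyte-like 42.0%. Levels are given as CPM, UMIs of a gene scaled to the same total in every pool, and only where a pool held at least 20 cells.

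The summed level of the 8 genes was highest in FAP-like cells at day 0 and in endothelial-like cells at days 5 and 14, with either diet. In hypothyroid muscle at day 14 the intervals of endothelial-like cells (3797 to 4041 CPM) and mural-like cells (3418 to 4281 CPM) overlapped. It lay between 1992 and 4909 CPM in FAP-like cells and between 1282 and 6429 CPM in endothelial-like cells. In mural-like cells, the pericytes and smooth muscle of vessels, it lay between 1549 and 3832 CPM, and in control at day 5 it was above FAP-like cells, at 3478 against 2482 CPM. In hypothyroid at day 14 it was 3832 CPM in mural-like against 3536 CPM in FAP-like cells, with overlapping intervals. Tenocyte-like cells had 1373 to 2675 CPM and glial-like cells 1267 to 2105 CPM. In T or NK-like cells, which make little basement membrane, it lay between 18.2 and 132 CPM. Among the 48 combinations of gene and library, the highest level was in FAP-like cells in 29 and in endothelial-like cells in 15. In part of these the interval overlapped that of the next cell type. Lamc1 in control at day 5 was at 298.6 CPM in endothelial-like and 298.2 CPM in FAP-like cells. Col4a2 in hypothyroid at day 0 was at 144 CPM in FAP-like and 142 CPM in endothelial-like cells. Hypothyroid day 0 had only 3 cell types to rank. FAP-like cells, which were 4087 of the 11207 cells, held 65.4% of all UMIs of the 8 genes. That share depends on how many cells were captured and on their depth.

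Col4a1 was ordered by cell type in control muscle at day 14. Endothelial-like cells had 3278 CPM (3198 to 3359) and mural-like cells 1463 CPM (1359 to 1573). FAP-like cells followed at 833 CPM (814 to 853), tenocyte-like cells at 643 CPM (591 to 698), glial-like cells at 539 CPM (440 to 655), myocyte-like cells at 459 CPM (407 to 515), and myogenic progenitor-like cells at 313 CPM (250 to 387). Myocyte-like cells of this library also held the FAP marker list at 5210 CPM, against 30416 CPM in FAP-like cells. The endothelial list was there at 678 CPM, against 9288 CPM in endothelial-like cells. The part of these lists in the myocyte-like level was not tested. The intervals of tenocyte-like and glial-like cells overlapped, as did those of glial-like and myocyte-like cells. In contrast, Nid1 was highest in FAP-like cells, at 1718 CPM (1691 to 1746) in the same library, against 507 CPM in tenocyte-like and 254 CPM in endothelial-like cells.

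Lama2 and Lama4 differed in where they were found. Lama2 was at 76.0 to 480 CPM in FAP-like cells over the 6 libraries, but at 0 to 30.4 CPM in endothelial-like cells. At day 0, Lama2 had 0 UMIs among 141335 UMIs of control endothelial-like cells, which allows up to 21.2 CPM. Lama4 was at 138 to 271 CPM in FAP-like cells and at 61.0 to 255 CPM in endothelial-like cells. Lama2 was measured in myogenic progenitor-like cells at 79.0 CPM (63.4 to 97.2) in control and 51.0 CPM (41.6 to 61.9) in hypothyroid muscle at day 5, and Lama4 there at 7.10 and 3.50 CPM.

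**Figure D1:**
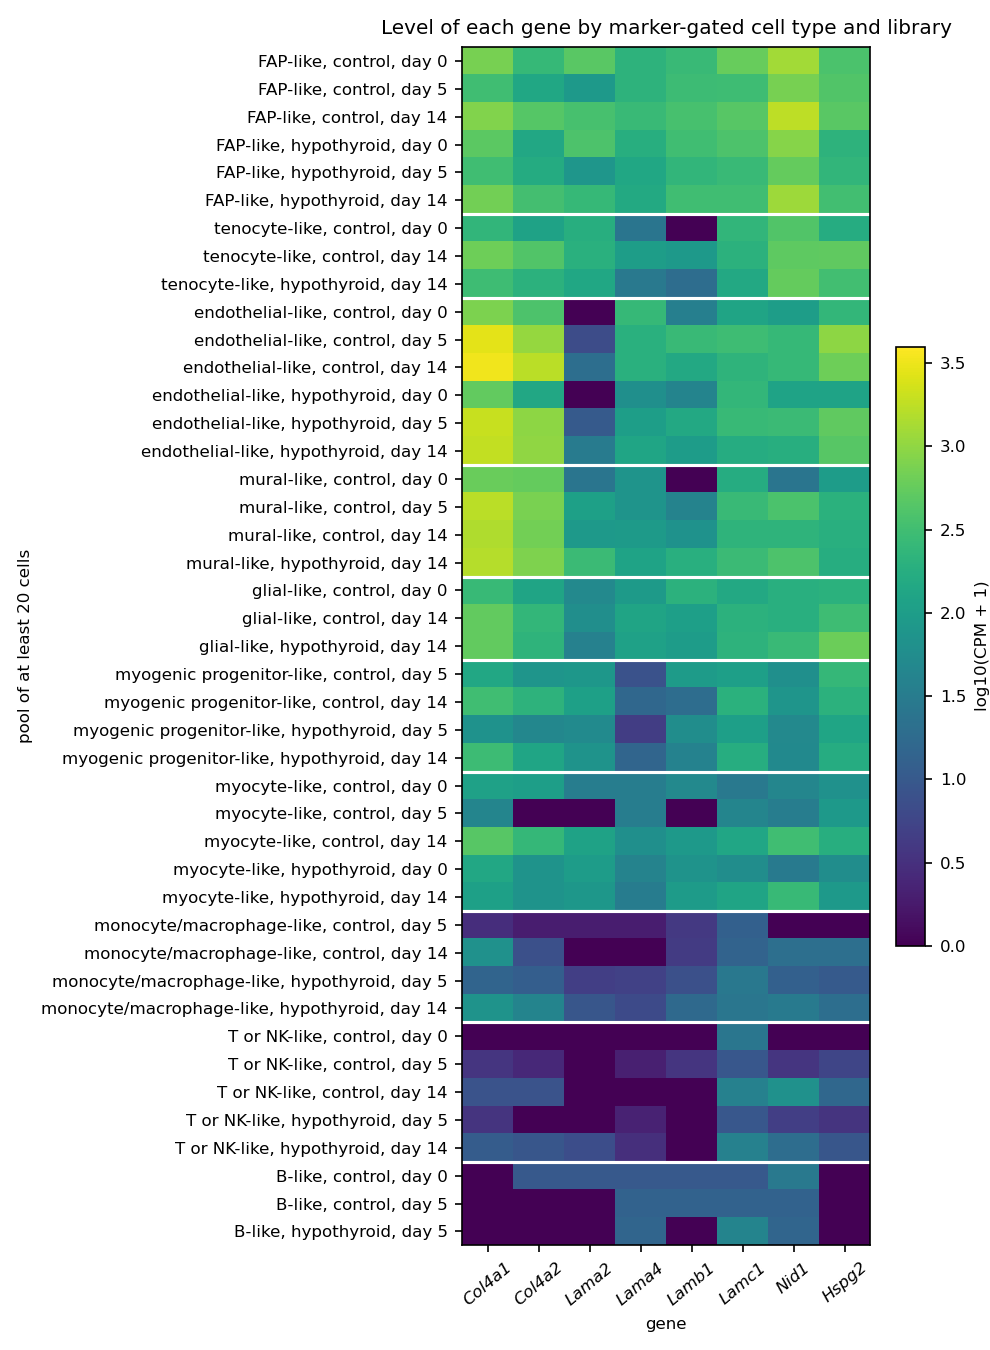
Level of each of the 8 genes (columns) in each pool of at least 20 cells (rows, by cell type, diet, and day), colored by log10(CPM + 1). Col4a1 is brightest in endothelial-like pools after injury, and Nid1 is brightest in FAP-like pools. T or NK-like, B-like, and monocyte/macrophage-like pools have summed levels of at most 212 CPM, the most in monocyte/macrophage-like cells of hypothyroid day 14.

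The shares of cells with a UMI gave a similar split after every cell was thinned to 1000 UMIs. At day 14 in control muscle Nid1 was seen in 78.2% of 1355 FAP-like cells (75.9% to 80.3%), Col4a1 in 46.6%, and Lama2 in 28.3%. Of 408 endothelial-like cells 78.4% had Col4a1, 67.6% Col4a2, and 1.47% Lama2 (0.542% to 3.17%). T or NK-like cells, used as the background of free RNA, had at most 6.12% for any of the 8 genes in that library (3 of 49 cells for Lamc1 and for Nid1). That limit was set by genes other than Lama2, so it cannot show whether the Lama2 share in endothelial-like cells is background. The thinning left out 17 FAP-like, 53 endothelial-like, and 2 T or NK-like cells. Without it, 97.2% of FAP-like and 15.7% of T or NK-like cells had Nid1, with median depths over all libraries of 7226 and 3337 UMIs.

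FAP-like cells at day 5 carried less of the collagen IV, Lama2, Lamc1, and Nid1 transcripts than at day 0 in control muscle, whereas Lama4, Lamb1, and Hspg2 were near their day 0 level. Col4a1 was at 717 CPM (692 to 743) at day 0, 312 CPM (295 to 330) at day 5, and 833 CPM (814 to 853) at day 14. In hypothyroid muscle it was at 487 CPM (451 to 525), 309 CPM (298 to 320), and 671 CPM (652 to 689). Thus the lowest level was at day 5 with either diet, and the intervals of the days did not overlap within a diet.

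By fold, Lama2 had the widest range of the 8 genes over the 3 days in FAP-like cells. It was at 480 CPM (460 to 501), 84.3 CPM (75.6 to 93.7), and 353 CPM (340 to 366) at days 0, 5, and 14 in control, and at 392 CPM (359 to 426), 76.0 CPM (70.5 to 81.7), and 257 CPM (246 to 269) in hypothyroid muscle. Its day 5 over day 0 ratio was 0.176 (0.156 to 0.197) in control and 0.194 (0.173 to 0.217) in hypothyroid.

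A ratio was called when it was at least 2-fold with an interval apart from 1, for genes with at least 50 UMIs in the pair. For day 5 over day 0 in control FAP-like cells, Col4a1 (0.435, 0.407 to 0.464) and Lama2 were called lower, 2 of the 8 genes, against 11.4% of all 9218 genes tested. Col4a2 (0.527), Lamc1 (0.524), and Nid1 (0.574) were also lower but short of 2-fold. In hypothyroid muscle only Lama2 was called lower, 1 of 8 against 19.7% of all genes, and Col4a1 had a ratio of 0.634 (0.583 to 0.690). Col4a2, which was low at day 0 in hypothyroid muscle at 144 CPM, had a ratio of 1.12 (0.963 to 1.30).

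From day 5 to day 14 the same 4 genes were called higher with either diet. In control the ratios were 2.67 for Col4a1, 3.24 for Col4a2, 4.19 for Lama2, and 2.37 for Nid1, 4 of 8 genes against 7.51% of all genes. In hypothyroid they were 2.17, 2.09, 3.39, and 2.07, against 12.1% of all genes. Both comparisons rest on the same day 5 libraries as those above. With all columns, 0 genes were called in control.

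For day 14 over day 0, a comparison added after the data were seen, 0 of 8 genes were called in either direction in control against 9.92% of all genes, with ratios from 0.735 for Lama2 to 1.71 for Col4a2. With a mean over cells of log2(CPM + 1), 3 of 8 were called with either diet. Calls with this mean used the 2-fold limit alone, without an interval, here and below. They were made for the 8 genes only, so no share of all genes stands beside them. In hypothyroid muscle Col4a2 was called higher, at 2.34 (2.02 to 2.71), 1 of 8 against 9.44% of all genes. Lama2 was below its day 0 level with either diet, at 0.657 (0.597 to 0.724) in hypothyroid.

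**Figure D2:**
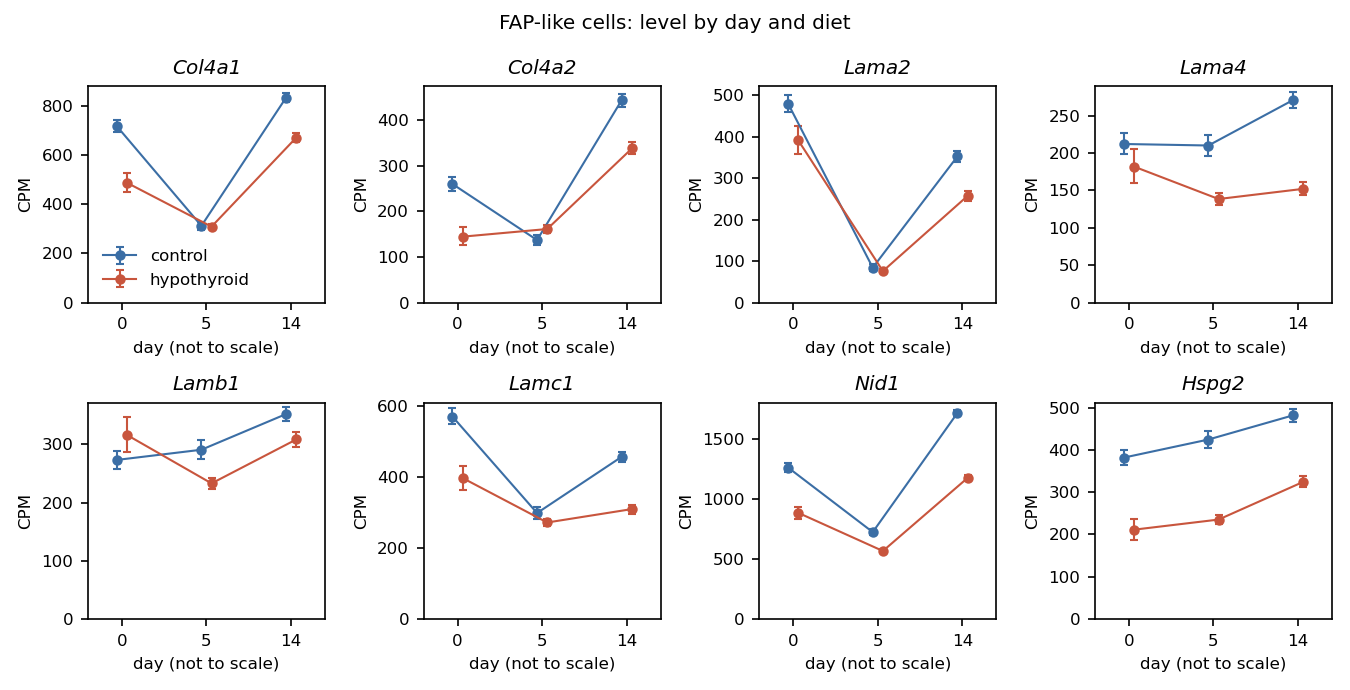
Level in FAP-like cells (CPM, each axis from 0) of each gene at days 0, 5, and 14 (evenly spaced, not to scale) in control (blue) and hypothyroid (red) muscle, with exact Poisson 95% intervals. Col4a1, Lama2, and Nid1 were lowest at day 5 with either diet, and Hspg2 was lower in hypothyroid on each day.

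Fibrillar collagens and genes of collagen folding differed from the 8 genes at day 5 in FAP-like cells. Among fibrillar collagens, which form the interstitial matrix, 5 of 6 tested were called higher for day 5 over day 0 in control (median ratio 6.61) and 7 of 7 in hypothyroid (median 9.95), beside 1.05 and 0.872 for all genes, of which 17.3% and 15.1% were called higher. Col1a1 was at 947 CPM at day 0 and 14250 CPM at day 5 in control, a ratio of 15.0. Genes of collagen folding and crosslinking, such as Serpinh1, the collagen chaperone, were called higher in 9 of 13 in control and 8 of 13 in hypothyroid. Of 14 other basement membrane components tested in control, 7 were called lower and 1 higher, with 11.4% of all genes called lower. Col4a4, a chain of a rarer type IV collagen, was at 44.0 CPM at day 0 and 3.45 CPM at day 5. For day 14 over day 5 in control, 7 of 13 other basement membrane components were called higher, against 7.51% of all genes. Among them were Col15a1 (3.03), which anchors basement membrane to the matrix below, and Ntn4 (3.89), a laminin-related netrin. In the same comparison 7 of 13 folding genes were called lower, against 14% of all genes, including Serpinh1 (0.316).

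All 10 cycling genes were called higher for day 5 over day 0 in FAP-like cells with either diet. Of all genes, 17.3% in control and 15.1% in hypothyroid were called higher. The gate's own marker list moved too. It went from a summed 51891 CPM at day 0 to 12404 CPM at day 5 in control, and from 51188 to 11240 CPM in hypothyroid. Lists of other cell types moved in the same pools. The tenocyte list went from 110 to 1318 CPM in control and from 141 to 1792 CPM in hypothyroid, and the myocyte list from 2604 to 502 CPM and from 8137 to 115 CPM. The part of these lists was not tested. The day 5 over day 0 ratios were also taken in FAP-like cells with a UMI of fewer than 3 of the 10 cycling genes. They were 0.412 (0.379 to 0.447) for Col4a1 and 0.204 (0.177 to 0.233) for Lama2 in control. In hypothyroid they were 0.635 and 0.201. With all columns of the files in place of the first runs, the control ratios of all FAP-like cells were 0.895 for Col4a1 and 0.673 for Lama2, with 0 of 8 called.

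FAP-like cells were further split by scores of an interstitial list (Cxcl14, Hmcn2, G0s2, Lpl, and Gdf10) and a Pi16-type list (Pi16, Dpp4, Cd55, Sema3c, and Ly6c1), which are ranges of a score and not types. Interstitial cells were 25.3% to 34.5% and Pi16-type cells 48.4% to 58.7% of FAP-like cells. Type IV collagen was higher in the interstitial range in each of the 6 libraries. In control at day 0, Col4a1 was at 1518 CPM in interstitial and 347 CPM in Pi16-type cells, a ratio of 4.38 (4.03 to 4.75). The ratio of Col4a1 was 4.41 at day 5 and 6.29 at day 14 in control, and 4.46, 3.12, and 4.16 in hypothyroid. For Col4a2 it lay between 3.40 and 6.55.

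Hspg2 and Lamb1 also had ratios above 1, which were highest at day 0 with either diet. The interstitial over Pi16-type ratio of Hspg2 was 3.42 (3.07 to 3.81) at day 0, 1.09 (0.974 to 1.22) at day 5, and 2.24 (2.09 to 2.4) at day 14 in control, and 2.37, 1.21, and 1.75 in hypothyroid. That of Lamb1 was 3.21, 1.17, and 1.68 in control and 2.39, 1.40, and 1.42 in hypothyroid. Lama2 had ratios of 1.37 to 2.53 over the 6 libraries, and Lamc1 of 1.0 to 1.87. Lama4 had no common direction, at 0.662 to 1.79. Nid1 was the exception, with the lower level in interstitial cells of each library (ratios 0.498 to 0.868).

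Within these ranges, the day 5 over day 0 ratio of Lama2 was 0.224 in Pi16-type and 0.121 in interstitial cells of control muscle, and 0.232 and 0.153 in hypothyroid. Hspg2 differed in direction in control, at 1.75 (1.57 to 1.94) in Pi16-type and 0.557 (0.496 to 0.626) in interstitial cells. Lamb1 did likewise, at 1.58 (1.39 to 1.78) and 0.574 (0.5 to 0.659). Over all FAP-like cells of control, which hold both, these genes were at 1.11 and 1.06. In hypothyroid, Hspg2 was at 1.53 (1.25 to 1.88) in Pi16-type and 0.775 (0.640 to 0.946) in interstitial cells, and Lamb1 at 0.980 (0.827 to 1.17) and 0.573 (0.487 to 0.678), so Lamb1 had no difference beyond its interval in Pi16-type cells.

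**Figure D3:**
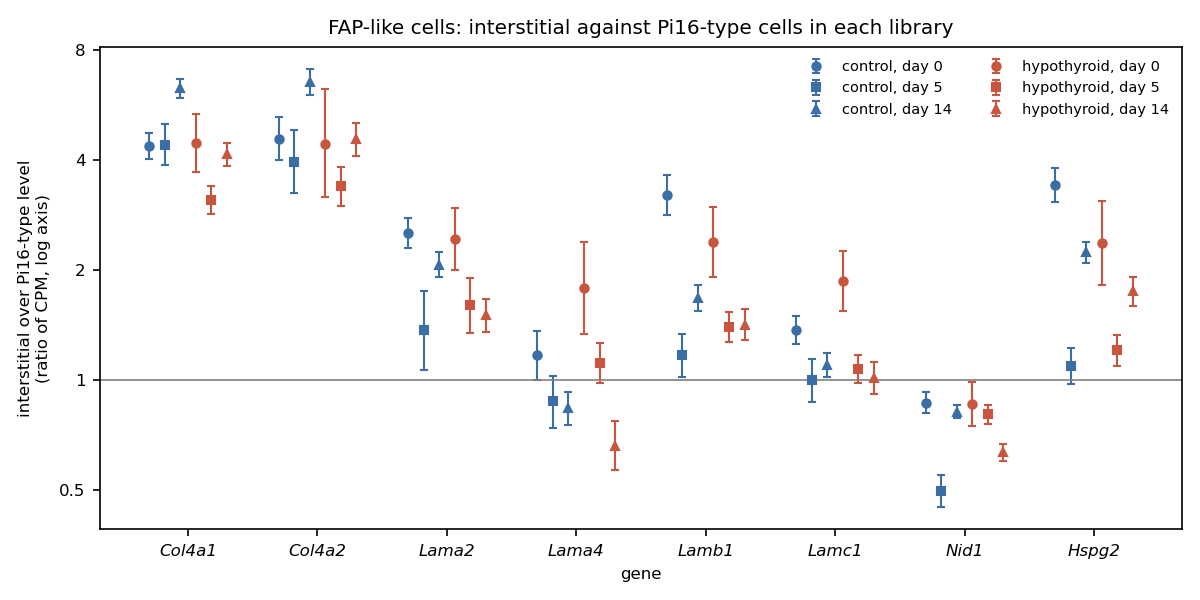
Ratio of the level in interstitial over Pi16-type FAP-like cells (log axis) for each gene in each of the 6 libraries, with exact 95% intervals. Col4a1 and Col4a2 lie between 3.12 and 6.55, whereas Nid1 lies below 1 in every library.

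Endothelial-like cells showed the opposite direction to FAP-like cells for Col4a1 from day 0 to day 5. At day 14 Col4a1 was above its day 0 level in FAP-like cells as well, with either diet. Col4a1 was at 764 CPM (627 to 923) at day 0, 2822 CPM (2709 to 2938) at day 5, and 3278 CPM (3198 to 3359) at day 14 in control. In hypothyroid muscle it was at 549 CPM (362 to 799), 2012 CPM (1826 to 2211), and 1831 CPM (1749 to 1916). Both injured days were above day 0, with no overlap of intervals, with either diet.

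In control 6 of the 7 genes tested were called higher for day 5 over day 0, against 15.2% of the 3436 genes tested. The ratios were 3.69 for Col4a1 (3.04 to 4.52), 2.73 for Col4a2, 4.0 for Hspg2, 2.62 for Nid1, 2.34 for Lamc1, and 7.63 for Lamb1 (3.22 to 23.7), the last from 5 UMIs at day 0. Lama4 was the exception, at 0.764 (0.530 to 1.13). With all columns 1 gene was called in control, and after thinning 3. In hypothyroid, with 22 cells at day 0, 4 of 5 genes were called higher against 19.8% of all genes: Col4a1 (3.66), Col4a2 (6.90), Hspg2 (4.33), and Nid1 (2.34, 1.01 to 6.62). The day 0 levels of these rest on 27 UMIs for Col4a1, 7 for Col4a2, and 6 each for Hspg2 and Nid1.

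From day 5 to day 14 in control endothelial-like cells, 0 of 7 genes were called, against 12.7% of all genes, with Hspg2 at 0.662 (0.606 to 0.725) and Col4a2 at 1.59 (1.47 to 1.71). In hypothyroid 0 of 7 were called, against 14% of all genes, with Col4a2 at 1.03 (0.891 to 1.21). With a mean over cells, 2 genes were called in control and 6 in hypothyroid, with no share of all genes taken. Among other basement membrane components, Col18a1, the source of endostatin, was at 28.3, 392, and 114 CPM in control at days 0, 5, and 14. The mural list in endothelial-like cells was at 792, 953, and 1978 CPM in control and 224, 215, and 2407 CPM in hypothyroid at days 0, 5, and 14. The FAP list summed to 20.3 to 618 CPM in endothelial-like cells, and the endothelial list to 14.9 to 74.7 CPM in FAP-like cells. The myocyte list in endothelial-like cells varied as well, at 7026, 654, and 9549 CPM in control and 14280, 187, and 3720 CPM in hypothyroid, and the part of these lists in the ratios was not tested. With the 8 genes and the 20 most abundant genes taken out of the totals, 185 of 185 member ratios over all cell types stayed on the same side of 1. Of the calls, 40 of 42 remained. This setting changes the totals only, and any member UMIs from other cell types stay counted. It therefore does not test the part of these lists. With all columns, the hypothyroid day 5 over day 0 ratios in endothelial-like cells turned to 0.901 for Col4a1, 0.917 for Nid1, and 0.900 for Hspg2.

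Capillary-range endothelial-like cells (Car4, Rgcc, Gpihbp1, Cd36, and Aqp1) had more Col4a1 than large-vessel-range cells. The ratio was 10.5 (4.90 to 27.0) at day 0, 2.94 (2.5 to 3.48) at day 5, and 3.31 (2.93 to 3.75) at day 14 in control. That of day 0 rests on 7 Col4a1 UMIs in 21 large-vessel-range cells and 86 in 52 capillary-range cells. In capillary-range cells alone, Col4a1 was 2.34 times (1.89 to 2.94) and Hspg2 2.4 times (1.63 to 3.67) its day 0 level at day 5, and Col4a2 1.54 times (1.15 to 2.09). In mural-like cells of control day 14, pericyte-range cells had 4.16 times (3.43 to 5.06) the Col4a1 and 9.21 times (4.89 to 19.2) the Nid1 of smooth-muscle-range cells.

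**Figure D4:**
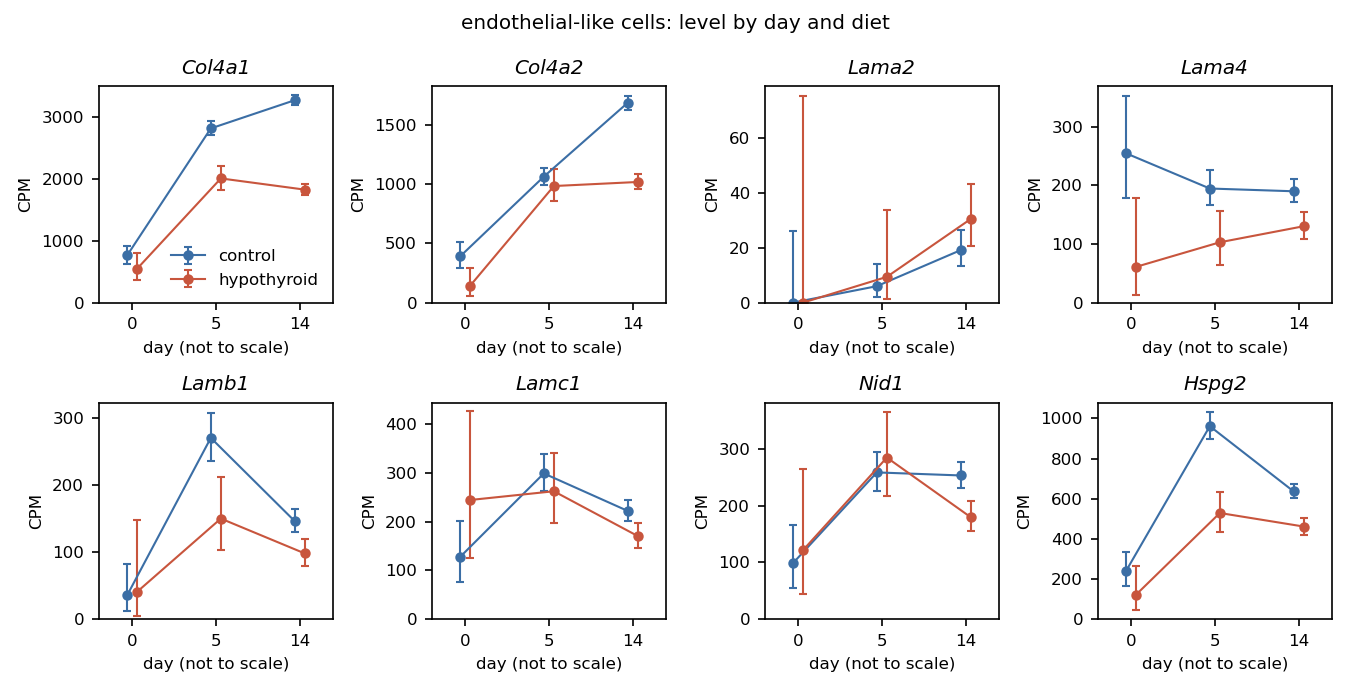
Level in endothelial-like cells (CPM, each axis from 0) of each gene at days 0, 5, and 14 (evenly spaced, not to scale) in control (blue) and hypothyroid (red) muscle, with exact Poisson 95% intervals. Col4a1, Col4a2, and Hspg2 were higher after injury with either diet, and the hypothyroid day 0 intervals, from 22 cells, are wide.

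The cell types that held the Col4a1 UMIs differed between days. FAP-like cells held 85.6% of Col4a1 UMIs in control at day 0, 25.6% at day 5, and 36.5% at day 14, and endothelial-like cells 2.97%, 47.8%, and 32.5%. In hypothyroid muscle FAP-like cells held 75.3%, 62.1%, and 56.4%, and endothelial-like cells 3.00%, 9.07%, and 20.8%. For Nid1, FAP-like cells held between 72.3% and 93.3% in the 6 libraries. These shares depend on how many cells of each type were captured, and between 6.38% and 24.4% of the Col4a1 UMIs of a library were in cells without a type, the most at hypothyroid day 5.

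Hypothyroid was compared with control on each day to ask whether the diet went with another level of these genes. In FAP-like cells, 0 of 8 genes were called at any day, against 4.54% of all genes at day 0, 12.6% at day 5, and 6.26% at day 14. Other settings called some: a mean over cells called 4 genes at day 0 and 1 at day 5, thinning 1 at day 0, and all columns 3 at day 5. For these settings the share of all genes called was not taken. At day 14 all 8 genes were lower in hypothyroid with intervals below 1, where 27.9% of all genes were, with ratios from 0.562 (0.523 to 0.603) for Lama4 to 0.876 (0.830 to 0.925) for Lamb1. The median ratio was 0.707 over the 8 genes and 0.938 over all genes tested.

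At day 0, 7 of 8 genes had intervals below 1, where 14.1% of all genes did, led by Hspg2 (0.554, 0.487 to 0.627) and Col4a2 (0.556, 0.476 to 0.646), while Lamb1 was higher at 1.16 (1.03 to 1.29). At day 5, 5 of 8 genes had intervals below 1, where 46.8% of all genes did, and the median of the 8 genes, 0.851, was not lower than that of all genes, 0.792. Hspg2 was at 0.554 (0.520 to 0.591) and Lama4 at 0.659 (0.604 to 0.719) on that day, whereas Col4a2 was at 1.18 (1.07 to 1.30). Hspg2 was thus between 0.554 and 0.673 on each day.

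The day 14 difference in FAP-like cells was larger in the interstitial range. Hypothyroid over control ratios there were 0.632 (0.600 to 0.665) for Col4a1, 0.603 for Col4a2, 0.576 for Lama2, and 0.470 (0.399 to 0.552) for Lama4. In Pi16-type cells they were 0.957 (0.885 to 1.03), 0.867, 0.794, and 0.594. The myocyte list in FAP-like cells summed to 6869 CPM in control against 1782 CPM in hypothyroid on that day, and its part was not tested. With a mean over cells of log2(CPM + 1), Col4a1 (1.07) and Lamb1 (1.28) were above 1 at day 14. The median depth of FAP-like cells on that day was 6036.5 UMIs in control and 9592 UMIs in hypothyroid, and its part was not tested. Other basement membrane components were called lower in 6 of 14 at day 14, against 5.22% of all genes, with 0 higher: Col15a1 (0.282), Hmcn1 (0.328), Lamb2 (0.477), Ntn4 (0.492), Col4a4 (0.361), and Col4a3 (0.310). Their median was 0.594. None of 8 receptors, 13 folding genes, or 7 fibrillar collagens was called in that comparison.

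In endothelial-like cells Col4a1 was at 0.558 (0.530 to 0.588) and Col4a2 at 0.604 (0.563 to 0.648) in hypothyroid over control at day 14. There 0 of 8 genes were called, against 4.59% of all genes, and 7 of 8 had intervals below 1, where 13.5% of all genes did. Lama2, at 19.0 and 30.4 CPM, was the exception at 1.59 (0.956 to 2.64). Among capillary-range cells Col4a1 was at 0.492 (0.466 to 0.519). At day 5, 0 of 7 genes were called against 10.6% of all genes, and 4 of 7 had intervals below 1 where 17.4% of all genes did, with Hspg2 at 0.550 (0.448 to 0.670) and Col4a2 at 0.925 (0.792 to 1.08). At day 0 only 2 genes could be tested, and Col4a2 was called lower at 0.366 (0.141 to 0.806), 1 of 2 against 10.4% of all genes, from 7 and 55 UMIs. Of other basement membrane components, Smoc2, Col18a1, and Agrn were called lower at day 14, 3 of 10 against 3.38% of all genes.

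**Figure D5:**
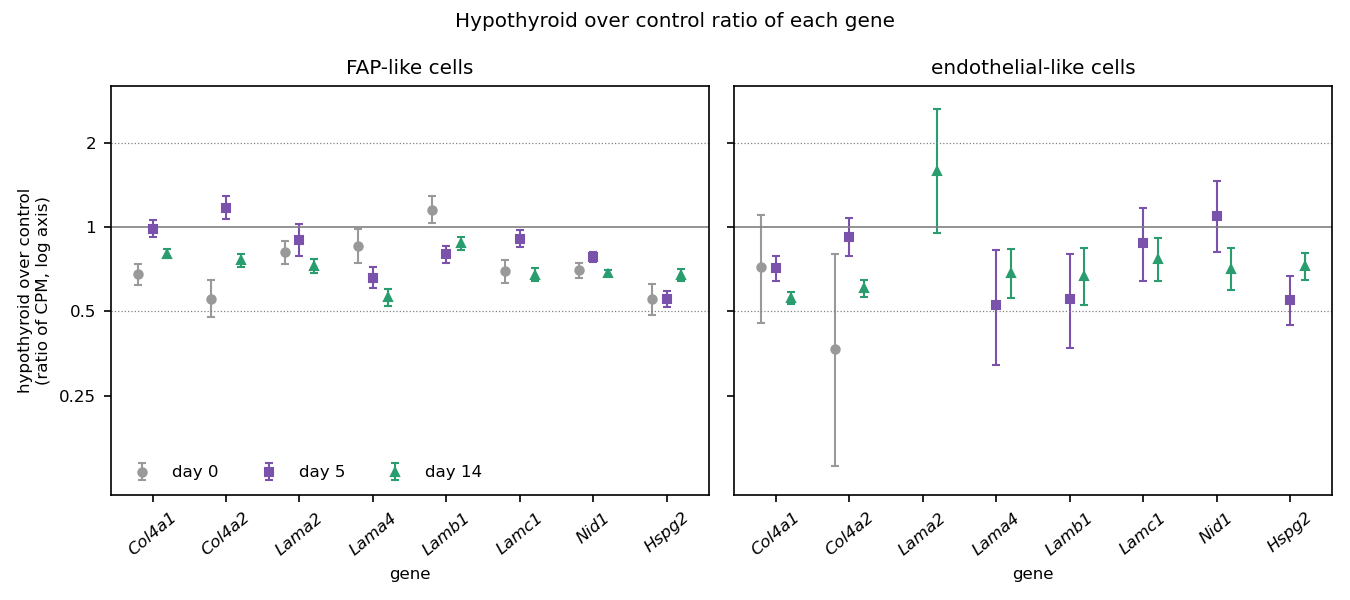
Hypothyroid over control ratio (log axis) of each gene in FAP-like (left) and endothelial-like (right) cells at days 0, 5, and 14, with exact 95% intervals; genes under 50 UMIs in a pair are not drawn and dotted lines mark 2-fold. At day 14 all points lie below 1 except Lama2 in endothelial-like cells.

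Cells around vessels, nerves, and tendons were fewer, and 1 cell could weigh heavily. In control mural-like cells (20 and 23 cells) Col4a1 was called higher for day 5 over day 0, at 2.78 (2.13 to 3.67), and Nid1 at 15.7 (5.04 to 78.6) from 3 and 47 UMIs, 2 of 4 genes against 12.6% of all genes. None of 7 was called for day 14 over day 5, against 14% of all genes. In hypothyroid over control at day 14 Lama2 was called higher in mural-like cells, at 3.2 (1.85 to 5.42), 1 of 7 against 6.39%. Glial-like cells, which hold the Schwann cells of nerve, had Col4a1 called higher for day 14 over day 0 in control, at 2.04 (1.42 to 2.98), 1 of 6 against 11.4%. In hypothyroid over control at day 14 they had Hspg2 called higher, at 2.03 (1.43 to 2.90), 1 of 5 against 1.87% of all genes.

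Tenocyte-like cells, from tendon, had higher levels at day 14 than in uninjured muscle. For day 14 over day 0 in control 5 of 8 genes were called higher, against 10.2% of all genes: Col4a1 (2.76), Col4a2 (3.50), Lama4 (4.19, from 4 UMIs at day 0), Hspg2 (3.17), and Lamb1, which had 0 UMIs at day 0 and 84.2 CPM at day 14, at least 4.7-fold higher against a floor of 3 UMIs. In hypothyroid over control at day 14, 4 of 8 were called lower, against 6.82% of all genes: Col4a1 (0.472, 0.360 to 0.610), Col4a2 (0.495), Lama4 (0.275), and Lamb1 (0.218), the last 2 from 6 and 4 hypothyroid UMIs. These 4 calls rest on 32 hypothyroid cells and were 0 with a looser gate.

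Myogenic progenitor-like cells, the muscle stem cell lineage, had low levels of the 8 genes, which summed to between 508 and 1145 CPM. In control, for day 14 over day 5, Col4a1 (2.22) and Col4a2 (2.78) were called higher and Lamb1 (0.194, from 5 UMIs at day 14) lower, 3 of 7 against 29% of all genes. In hypothyroid Col4a1 (4.38, 3.29 to 5.81) and Col4a2 (2.88) were called higher, 2 of 7 against 6.98%. In hypothyroid over control at day 5 Col4a1 was called lower, at 0.475 (0.374 to 0.601), from 141 and 67.0 CPM, 1 of 7 against 8.54%. The call was lost without the cell with most Col4a1 UMIs in each pool. At day 14, 0 of 5 were called, against 11.7% of all genes. Hspg2 in these cells was at 248 CPM (219 to 278) in control and 128 CPM (113 to 145) in hypothyroid at day 5.

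Col4a1 and Col4a2 were counted in unequal numbers, with no scaling for length, so their ratio is compared between pools only. In FAP-like cells there were 0.362 Col4a2 UMIs per Col4a1 UMI (0.338 to 0.388) at day 0, 0.439 (0.397 to 0.486) at day 5, and 0.532 (0.512 to 0.554) at day 14 in control. In hypothyroid there were 0.296 (0.252 to 0.348), 0.522 (0.491 to 0.556), and 0.503 (0.480 to 0.528). Thus day 0 had the fewest Col4a2 UMIs per Col4a1 UMI with either diet. In endothelial-like cells the ratio was 0.509, 0.376, and 0.513 in control, and 0.488 and 0.555 at days 5 and 14 in hypothyroid. With all columns, the control ratios of FAP-like cells were 0.443, 0.503, and 0.485.

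Genes with the most similar pattern were ranked by Pearson correlation of log levels over 43 pools, which share libraries and are no independent samples. Col4a1 was most like Hspg2 (r = 0.951), Col4a2 (0.945), and Amotl1 (0.943). Lama2 was most like Plxdc2 (0.945), Ddr2 (0.898), and Rarres2 (0.891), and Nid1 most like Tgfbr3 (0.884), Fstl1 (0.877), and Plac9 (0.872). Hspg2 was most like Wwtr1 (0.967), Amotl1 (0.963), and Col4a1. For Lama4 the closest was Fbxl7 (0.894), for Lamb1 Srgap1 (0.841), for Lamc1 Rhoj (0.895), and for Col4a2 Col4a1. Between members, r was lowest for Lama2 and Lama4, at 0.594.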

How the data were processed

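Per the labels and the study's methods, reads of 10x Genomics version 3 libraries were mapped to mm39 in Partek Flow by its Cell Ranger aligner (submitters' processing notes), and the authors deposited log2(CPM + 1) for 12436 genes per cell. The study states limits of 100 to 8000 UMIs and at least 500 genes per cell. In the first runs, 3360 of 11207 cells had more than 8000 UMIs, 601 had fewer than 500 genes, and 7248 lay inside the limits. UMI counts were recovered by taking the most frequent value above 0 of a cell as 1 UMI (99.934% of values whole within 0.05, and all values of the 8 genes). The 9062 columns of later runs were not used.

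For the gate, each marker's CPM was divided by the mean of its 50 highest cells and capped at 1. A cell needed 3 markers with a UMI, a score of at least 0.05, and 2 times the score of the next list. This replaced a planned gate on detected markers and was chosen after marker levels were seen. Sub-ranges used the 2 times rule within a gate. No doublet caller was run. UMIs were summed per pool of at least 20 cells, with exact Poisson intervals for levels, exact binomial intervals for ratios, and Clopper-Pearson intervals for shares. No p-value was computed. The members and lists were chosen with earlier results of these data known. Genes outside the 8 were named from the lists by called ratio, ranked on the end of the interval nearest 1, up to 6 per comparison, and likewise the 3 most similar genes. Alternatives were all columns, a stricter and a looser gate, a mean over cells, totals without the 20 most abundant genes, and thinning, and after the data were seen the planned gate and leaving out the top cell. The mean over cells was that of log2(CPM + 1), and its calls used the 2-fold limit without an interval. Python 3.11.15, numpy 2.4.6, pandas 2.3.3, scipy 1.17.1, and matplotlib 3.10.9 were used, and ratios were tested on simulated data.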

Additional observations from a re-analysis of the deposited data

Results flagged for a closer look

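Col4a1 and Nid1 differed in direction between cell types over the same days, and this difference was not tested. Col4a1 was lower at day 5 than at day 0 in FAP-like cells, at 0.435 in control and 0.634 in hypothyroid, and higher in endothelial-like cells, at 3.69 and 3.66. Nid1 was at 0.574 and 0.641 in FAP-like cells and at 2.62 and 2.34 in endothelial-like cells. The FAP-like and endothelial-like values of a diet come from the same pair of libraries. The hypothyroid endothelial-like values rest on 27 UMIs of Col4a1 and 6 of Nid1 at day 0. With all columns the contrast was lost in hypothyroid, where endothelial-like Col4a1 was at 0.901 and Nid1 at 0.917. In control, FAP-like Col4a1 was at 0.895 and Nid1 at 1.15, and endothelial-like Col4a1 at 1.87 and Nid1 at 1.57.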

How the results depend on the processing

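Beside the values below, the 8 genes were on the same side of 1 in 149 of 186 ratios with all columns, 141 of 143 with a stricter gate, 175 of 186 with a looser gate, 142 of 186 with a mean over cells, 185 of 185 without the 20 most abundant genes, 147 of 167 after thinning, 31 of 31 with the gate by detected markers, and 176 of 185 without the top cell. Of the calls that could be repeated, 19 of 43, 22 of 27, 39 of 43, 39 of 43, 40 of 42, 15 of 35, 5 of 6, and 39 of 42 remained in that order. Thinning and the stricter gate leave fewer UMIs or cells, and fewer genes reach 50 UMIs. The cause of the other differences was not tested. No paired analysis was possible because each group is 1 library. The limits are depth, the small pools at day 0 in hypothyroid muscle, and the unknown origin of later columns. The numbers that follow count the genes called, with those of the report after "from". Those of the mean over cells used the 2-fold limit alone, without an interval. For none of the settings below was the share of all genes called taken, so these counts have no background.

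With all columns, FAP-like cells had 0 (from 2) for control day 5 over day 0, 0 (from 4) for control day 14 over day 5, and 3 (from 0) for hypothyroid over control at day 5. Endothelial-like cells had 1 (from 6) and 0 (from 4) for day 5 over day 0 in control and hypothyroid, 1 (from 0) for hypothyroid day 14 over day 5, and 2 (from 1) for hypothyroid over control at day 0. There Col4a2 turned to 1.09, and the hypothyroid day 5 over day 0 ratios turned to 0.901 for Col4a1, 0.917 for Nid1, and 0.900 for Hspg2. Mural-like cells had 1 (from 2) for control day 5 over day 0 and 2 (from 1) for hypothyroid over control at day 14, glial-like cells 0 (from 1) for control day 14 over day 0, and tenocyte-like cells 3 (from 5) for it and 2 (from 4) for hypothyroid over control at day 14. Myogenic progenitor-like cells had 0 (from 1) for hypothyroid over control at day 5. The Col4a2 per Col4a1 ratio of FAP-like cells was 0.443, 0.503, and 0.485 in control and 0.471 in hypothyroid at day 5, and that of endothelial-like cells 0.473 in control at day 5. FAP-like cells held 66.0% of the UMIs of the 8 genes, 60.5% with the stricter and 69.8% with the looser gate.

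With a mean over cells, FAP-like cells had 4 (from 2) and 4 (from 1) for day 5 over day 0 in control and hypothyroid, 3 (from 0) and 3 (from 1) for day 14 over day 0, and 4 (from 0) and 1 (from 0) for hypothyroid over control at days 0 and 5. Endothelial-like cells had 2 (from 0) and 6 (from 0) for day 14 over day 5, and 1 (from 0) and 3 (from 0) for hypothyroid over control at days 5 and 14. Mural-like cells had 1 (from 0) for control day 14 over day 5, glial-like cells 2 (from 1) for control day 14 over day 0 and 2 (from 1) for hypothyroid over control at day 14, and myogenic progenitor-like cells 2 (from 1) and 2 (from 0) for hypothyroid over control at days 5 and 14. Combinations highest in endothelial-like cells were 9 (from 15), and 8 with the gate by detected markers.

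With the looser gate, endothelial-like cells had 1 (from 0) for day 14 over day 5 with either diet and for hypothyroid over control at day 5, mural-like cells 1 (from 0) for control day 14 over day 5, glial-like cells 2 (from 1) for control day 14 over day 0, tenocyte-like cells 0 (from 4) for hypothyroid over control at day 14, and myogenic progenitor-like cells 2 (from 0) for hypothyroid over control at day 14. With the stricter gate, mural-like cells had 1 (from 0) for control day 14 over day 5, glial-like cells 0 (from 1) for control day 14 over day 0, and tenocyte-like cells 2 (from 4) for hypothyroid over control at day 14. After thinning to 1000 UMIs, FAP-like cells had 1 (from 0) for hypothyroid over control at day 0, endothelial-like cells 3 (from 6) for control day 5 over day 0 and 1 (from 0) for hypothyroid over control at day 5, and tenocyte-like cells 2 (from 5) for control day 14 over day 0. It left 0 calls in mural-like, glial-like, and tenocyte-like cells for hypothyroid over control at day 14, in glial-like cells for control day 14 over day 0, and in myogenic progenitor-like cells for day 14 over day 5 with either diet and for hypothyroid over control at day 5. With the gate by detected markers, FAP-like cells had 1 (from 2) for control day 5 over day 0, and endothelial-like cells 1 (from 0) for hypothyroid over control at day 5. Without the top cell, endothelial-like cells had 1 (from 0) for hypothyroid over control at day 5, mural-like cells 1 (from 2) for control day 5 over day 0, and myogenic progenitor-like cells 0 (from 1) for hypothyroid over control at day 5.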
